A study of Mus musculus with 40 samples.

Results

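let-7d-3p and let-7i-3p are the strands cut from the 3p arms of the let-7d and let-7i hairpins, called passenger strands because the 5p arms of these hairpins give the better known let-7 guides. Both were chosen by name from a table of mature microRNA read counts in mouse blood, after their counts at the 4 ages had been seen, so that their levels over age and their strand ratios are given as a description with no test. They are 2 of the 1915 microRNA rows of the table, and every one of the 40 libraries entered the account.

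A microRNA hairpin is trimmed to a short duplex, and usually the strand from a single arm is loaded into an Argonaute protein, where it guides the complex to messenger RNAs that pair with its seed. The other strand is mostly degraded, so that its reads are normally few. The let-7 guides share a seed, are abundant in differentiated cells and repress genes of growth and the cell cycle. Passenger strands carry other seeds and, where they persist, would pair with other targets.

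The animals were male C57B/6J wild-type mice, housed singly and bled from the retro-orbital sinus at 4 ages, which were 12, 13.5, 15 and 16.5 months. The same mice were followed and were trained in a water maze at intervals, and the methods and the scheme of the study place the first bleeding on different sides of the first training. A home-cage group without training was also kept, and the labels do not say whether any library came from it. Each age had 10 libraries of total blood, 40 in all. The column names carry 10 numbers, each present once at every age, which may mark the mice, though the labels do not say so. The 40 libraries were treated as independent, so the main p-values and SEs leave out any such pairing. A fit with a block by these numbers is given at the end. P-values then measure the spread between libraries, which may include repeated samples of 1 mouse. In whole blood, fewer cells of a type and less RNA per cell cannot be told apart.

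The libraries held 2469196 to 21386209 counts, but the miR-486 rows took most of them, a mean of 92.8% at 12 months and 95.9% at 15 months (SD 1.55 and 1.2, n = 10 each), which left 93002 to 1739959 counts for all other microRNAs. The median total was lowest at 15 months. The column names of the 12 and 16.5 months libraries share a form that the 13.5 and 15 months libraries do not, and any batch behind these forms cannot be told apart from age. Markers of blood were present as labelled. Red cell microRNAs (miR-486, miR-451a and miR-144; 7 of 7 rows with reads) dominated, lymphocyte (3 of 3 rows) and myeloid markers (4 of 4 rows) were present, and the liver marker miR-122-5p and the brain markers stayed under 1 CPM (counts scaled to a common library size) in every library.

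The mature strands are shown because the guide and passenger of a hairpin differ in seed and base composition. Sequences are from RefSeq (GRCm38.p6), written 5′ to 3′, and the capitals mark the seed, bases 2 to 8.
let-7d-3p: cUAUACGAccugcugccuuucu
let-7d-5p: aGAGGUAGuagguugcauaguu
let-7i-3p: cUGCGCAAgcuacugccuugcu
let-7i-5p: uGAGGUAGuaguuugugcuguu
let-7b-3p: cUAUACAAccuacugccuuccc

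The guides let-7d-5p and let-7i-5p were equal at 16 of 22 positions and at 7 of 7 seed positions, and their seed occurs in 11 mature mouse microRNAs of the table of sequences. The passengers let-7d-3p and let-7i-3p were equal at 15 of 22 positions but at 3 of 7 seed positions, and each seed occurs in 1 mature microRNA, its own. let-7b-3p, printed for comparison, was equal to let-7d-3p at 18 of 22 positions and at 6 of 7 seed positions, and its seed is shared by 5 mature strands of the family. let-7d-3p has 50% G and C and let-7i-3p 59.1%, whereas both guides have 40.9%.

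The hairpins below, also from RefSeq, show with capitals where the 5p strand and then the 3p strand lie.
let-7d hairpin: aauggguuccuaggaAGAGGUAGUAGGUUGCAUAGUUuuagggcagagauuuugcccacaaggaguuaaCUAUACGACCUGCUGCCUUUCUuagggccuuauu
let-7i hairpin: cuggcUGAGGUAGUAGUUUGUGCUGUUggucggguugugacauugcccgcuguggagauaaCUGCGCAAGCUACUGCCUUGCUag

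Mirlet7d lies on the minus strand at chr13:48536012-48536114 (GRCm38, the assembly named mm10 in the files' processing), 103 bases long, inside exon 2 of the long non-coding RNA gene 6720427I07Rik. Mirlet7f-1 and Mirlet7a-1 lie on the same strand at distances of 1715 and 2065 bases. Mirlet7i, 85 bases long, lies on the minus strand at chr10:122985640-122985724, where exon 1 of a processed pseudogene, D630033A02Rik, overlaps it. Both members have a single place in the genome table, so each row has 1 source hairpin by name.

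The row mmu-let-7d-3p had reads in all 40 libraries. Its counts (lowest, median and highest of 10 libraries) were 255, 767.5 and 1568 at 12 months and 312, 902.5 and 1530 at 13.5 months. At 15 months they were 187, 290.5 and 510, and at 16.5 months 253, 556.5 and 746. Raw counts were smallest at 15 months, where the libraries were also shallow, and all ages overlapped.

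Scaled levels of let-7d-3p, in log2 CPM with TMM factors (a scaling that sets the bulk of microRNAs level between libraries), were 5.54 ± 0.66 at 12 months, 5.88 ± 0.31 at 13.5 months, 6.07 ± 0.64 at 15 months and 6.01 ± 0.98 at 16.5 months (SD, n = 10 each). Against 12 months the fitted log2 fold changes were 0.23 (SE 0.31), 0.52 (SE 0.31) and 0.64 (SE 0.31) in order of age. The mean was lowest at 12 months, but the levels of every pair of ages overlapped. The spread within 16.5 months, with its highest library at 7.58 and its median at 5.71, was wider than any difference between age means. By medians 15 months (5.72) lay below 13.5 months (5.82), and it stood 0.28 above 12 months. Scaled to library totals alone, the difference between the means at 15 and 12 months was -0.31 in place of 0.53, so its sign depends on the scaling. With that scaling the median log2 fold change of all tested microRNAs at 15 v 12 months was -0.84, against -0.06 with TMM. Relative to this -0.84, let-7d-3p was again the higher at 15 months.

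The row mmu-let-7i-3p was far scarcer, with a median of 51.5 reads over the 40 libraries against 504 for mmu-let-7d-3p. Its counts (lowest, median, highest) were 33, 79 and 150 at 12 months and 49, 119.5 and 266 at 13.5 months. They were 11, 26.5 and 56 at 15 months and 5, 46.5 and 111 at 16.5 months. Every library held more let-7d-3p than let-7i-3p reads. With more than 100 reads in 11 of 40 libraries, let-7i-3p missed the filter used for the main fit (more than 100 reads in 50% of libraries), and its fold changes come from a fit with a filter of more than 1 read in 50% of libraries.

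In log2 CPM let-7i-3p stood at 2.34 ± 0.31 at 12 months, 3.17 ± 0.23 at 13.5 months, 2.60 ± 0.50 at 15 months and 2.13 ± 0.30 at 16.5 months (SD, n = 10 each). The order of the means, from the highest, was thus 13.5, 15, 12 and 16.5 months. At 13.5 months 9 of 10 libraries lay above the highest at 12 months, and all 10 libraries at 16.5 months lay below the lowest at 13.5 months. Neighbours in that order overlapped in every case. Of all microRNAs past the main filter, which let-7i-3p missed, 21.9% were called lower at 16.5 v 13.5 months by adjusted p. That is a share of calls, and the share of rows whose libraries did not overlap was not counted. Fitted log2 fold changes were 0.82 (SE 0.15) at 13.5 v 12 months, -0.55 (SE 0.16) at 15 v 13.5 months and -1.05 (SE 0.16) at 16.5 v 13.5 months. At 15 v 12 months the fitted value was 0.27 (SE 0.16). With library totals alone the difference of the means was -0.54. That is below 0 but above -0.84, the median log2 fold change of all rows past the main filter with that scaling.

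**Figure D1:**
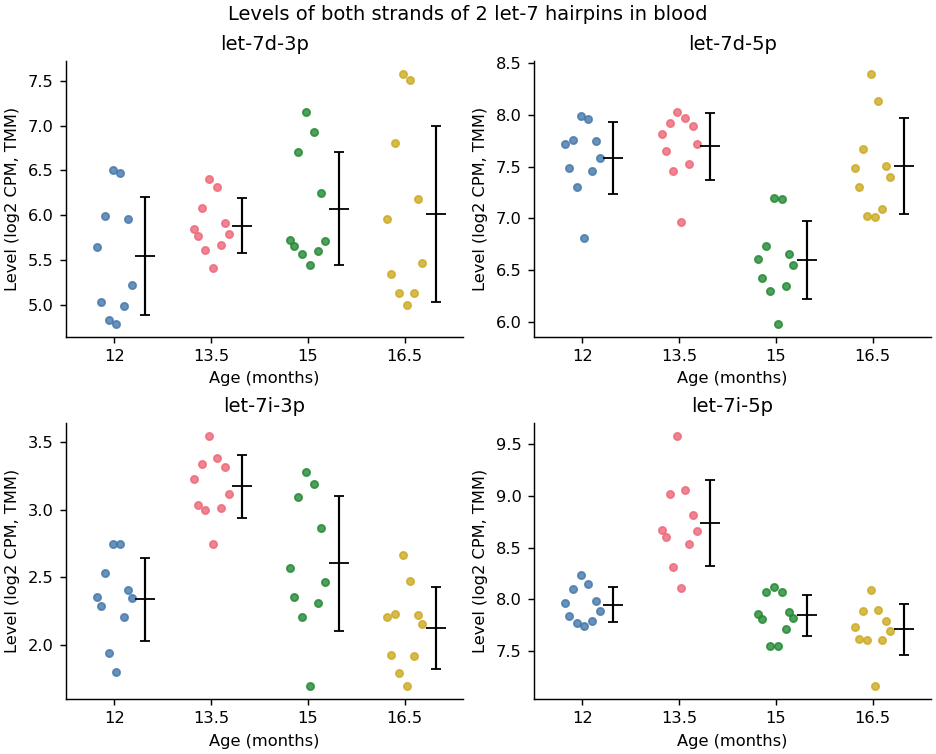
Levels of both strands of the let-7d and let-7i hairpins against age in months, in log2 CPM with TMM factors, 1 point per library and 10 libraries per age. The black marks give the mean ± SD. let-7d-3p overlaps at all ages, let-7d-5p has its lowest mean at 15 months, and both let-7i strands are highest at 13.5 months.

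The guide strands of the same hairpins were not used to choose the members and were tested with edgeR's quasi-likelihood test over all 105 microRNAs past the filter, with Benjamini-Hochberg adjustment. let-7d-5p changed over age (adjusted p = 5.13e-06). Its counts (lowest, median, highest) were 1939, 2674 and 6416 at 12 months, 773, 2746.5 and 5621 at 13.5 months, 228, 422.5 and 675 at 15 months and 467, 1707 and 2500 at 16.5 months. Raw counts at 15 months did not overlap with any other age apart from those at 16.5 months, and how many other rows separate so was not counted. The level was 7.58 ± 0.35, 7.69 ± 0.32, 6.60 ± 0.38 and 7.50 ± 0.46 log2 CPM in order of age (SD over 10 libraries). The mean was lowest at 15 months, where 8 of 10 libraries lay below the lowest at 12 months, 8 of 10 below the lowest at 13.5 months and 7 of 10 libraries at 16.5 months above the highest at 15 months. let-7d-5p fell at 15 v 12 months, with a log2 fold change of -0.98 (SE 0.17, adjusted p = 6.38e-05), and at 15 v 13.5 months, with -1.09 (SE 0.17, adjusted p = 1.6e-06). It rose again at 16.5 v 15 months, by 0.93 (SE 0.17, adjusted p = 6.18e-05). All 10 older libraries lay on that side of the younger mean in each of these 3 comparisons. The values at 13.5 v 12 months (0.11, SE 0.17, adjusted p = 0.652) and at 16.5 v 12 months (-0.05, SE 0.17, adjusted p = 0.851) did not pass the threshold.

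let-7i-5p changed over age as well (adjusted p = 3.11e-09), on a course of its own. Its counts (lowest, median, highest) were 2461, 3834 and 6539 at 12 months, 1710, 5201 and 10903 at 13.5 months, 364, 1042.5 and 1873 at 15 months and 198, 2194 and 4895 at 16.5 months. Its level was 7.95 ± 0.17, 8.73 ± 0.41, 7.84 ± 0.20 and 7.71 ± 0.25 log2 CPM (SD, n = 10 each) in order of age, with the peak at 13.5 months. At 16.5 v 13.5 months let-7i-5p fell by 1.06 on the log2 scale (SE 0.13, adjusted p = 1.51e-08), and the libraries of these ages did not overlap. Of the 105 rows tested, 21.9% were called lower at this contrast, and how many had no overlap was not counted. The corresponding fitted value for the passenger let-7i-3p was the -1.05 given above. At 15 v 12 months let-7i-5p stood at -0.10 on the log2 scale (SE 0.13, adjusted p = 0.591), and at 0.0044 with the miR-486 rows left out. With library totals alone it was -0.86 (adjusted p = 0.00605).

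The ratio of the 3p to the 5p reads of a hairpin is taken within a library and needs no scaling. For let-7d the log2 ratio (0.5 added to each count) was -2.04 ± 0.78 at 12 months, -1.82 ± 0.46 at 13.5 months, -0.52 ± 0.34 at 15 months and -1.49 ± 0.62 at 16.5 months (SD, n = 10 each). This corresponds to 4.12, 3.52, 1.44 and 2.82 guide reads for each passenger read. The passenger stayed below the guide in 40 of 40 libraries, but at 15 months the strands came close to equal numbers.

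Expressed as a share, let-7d-3p made up 20.7% ± 8.96 of the reads of both arms at 12 months, 22.5% ± 5.49 at 13.5 months, 41.1% ± 5.76 at 15 months and 26.9% ± 8.42 at 16.5 months (SD, n = 10 each). The lowest, median and highest shares were 11.6%, 18.5% and 36.0% at 12 months and 32.8%, 40.4% and 49.5% at 15 months. The 15 months libraries all lay above every 13.5 months library, 8 of 10 lay above the highest at 12 months, and 7 of 10 libraries at 16.5 months lay below the lowest at 15 months. The other pairs of ages overlapped more widely. How many other hairpins separate 2 ages in this way was not counted, so the separation cannot be called particular to let-7d. The difference of the mean log2 ratios was 1.52 (SE 0.27) at 15 v 12 months, 1.29 (SE 0.18) at 15 v 13.5 months and -0.97 (SE 0.22) at 16.5 v 15 months. In the strands' own levels with TMM scaling, 8 of 10 libraries at 15 months lay below the lowest 12 months library for the 5p strand, and 3 of 10 lay above the highest for the 3p strand, with overlap in both.

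The lowest share came from a 12 months library with 255 of 2194 reads on the 3p arm, 11.6% (95% Clopper-Pearson interval 10.3 to 13.0), and the highest from a 15 months library with 337 of 681 reads, 49.5% (45.7 to 53.3). The intervals cover counting error alone, since amplified reads without molecular identifiers are not independent molecules. The 15 months columns carried names of 2 forms, and the log2 ratio was -0.36 ± 0.31 (SD, n = 3) in the first and -0.60 ± 0.36 (SD, n = 7) in the second, both above the means of the other ages.

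**Figure D2:**
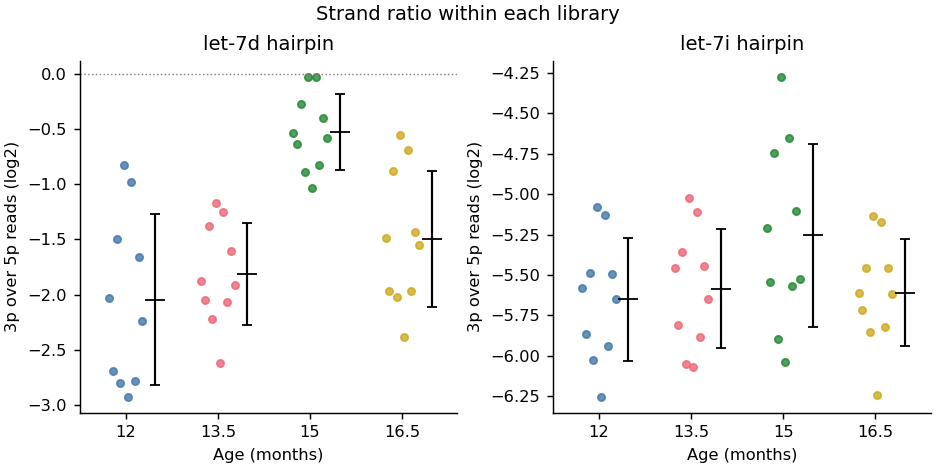
Log2 ratio of 3p to 5p reads within each library against age in months, for let-7d and for let-7i, on axes of their own. Points are libraries (10 per age), black marks give the mean ± SD, and the dotted line in the let-7d panel marks equal reads on both arms. The let-7d ratio is nearest to equal reads at 15 months (-0.52 ± 0.34), and the let-7i ratios overlap at all ages.

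The let-7i passenger was a minor product at every age. Its log2 ratio to let-7i-5p was -5.65 ± 0.38, -5.58 ± 0.37, -5.26 ± 0.57 and -5.61 ± 0.33 (SD, n = 10 each) from 12 to 16.5 months, or 50.2, 48.0, 38.2 and 48.8 guide reads per passenger read. Its share of the reads of both arms was 2.09% ± 0.53 at 13.5 months and 2.67% ± 1.07 at 15 months, with medians of 1.99% and 1.98% at 12 and 16.5 months. The mean was highest at 15 months here too, by 0.40 (SE 0.22) over 12 months, but all pairs of ages overlapped.

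Counts limit the let-7i ratio more than that of let-7d. The lowest share was 33 of 2587 reads at 12 months, 1.28% (95% Clopper-Pearson interval 0.880 to 1.79), and the highest 27 of 559 at 15 months, 4.83% (3.21 to 6.95). With at least 100 reads asked for on both arms, 3, 7, 0 and 1 libraries remained from 12 to 16.5 months, so no such value exists at 15 months.

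**Figure D3:**
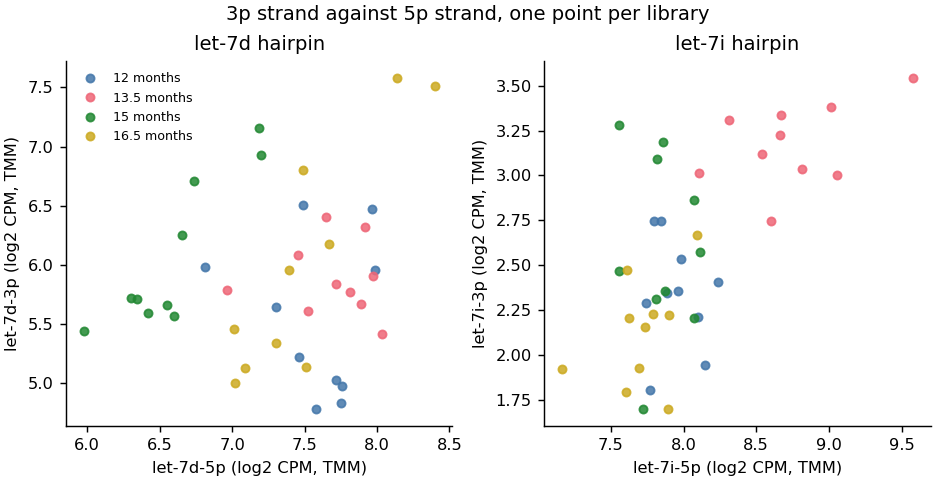
The 3p level against the 5p level of let-7d and of let-7i, both in log2 CPM with TMM factors, 1 point per library coloured by age. The 15 months libraries of let-7d lie to the left, at low 5p levels, while the 13.5 months libraries of let-7i lie at high levels of both strands.

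Over the 40 libraries the levels of let-7i-3p and let-7i-5p had a Pearson r of 0.65, which became 0.15 for the deviations from the age means. For let-7d-3p and let-7d-5p the order was the opposite, 0.21 for the levels and 0.56 for the deviations. By these values the let-7i strands moved together mainly from age to age and the let-7d strands mainly from library to library. The 2 hairpins differ in depth, with a median of 51.5 reads for let-7i-3p and 504 for let-7d-3p. Counting error can lower the r of deviations for the scarcer strand, and its part was not tested. The passengers correlated weakly with each other, with 0.22 for levels and 0.32 for deviations. These are descriptions over libraries that share their scaling, with no test.

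Both members stood out among the passengers of their family by abundance. The table holds 23 let-7 and miR-98 rows, 12 of them 3p strands. Of all 3p reads of the family, let-7d-3p took 88.1% and let-7i-3p 9.76% (let-7a-1-3p and let-7c-2-3p, with the same sequence and equal counts in 40 of 40 libraries, counted once). None of the 10 other 3p rows exceeded 27 reads in any library, let-7a-2-3p had no read, and 4 had more than 1 read in 50% of libraries. let-7d-3p and let-7i-3p were thus the family's passengers with reads enough to describe.

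Of the 8 other family rows past the main filter, 7 changed over age, against 61.0% of all 105 microRNAs tested. The exception was let-7f-5p (adjusted p = 0.0619), which passed in 6 of the 7 alternative fits at this filter, where 8 of 8 rows were called, and not with the miR-486 rows left out, where 7 were. At 13.5 v 12 months 2 of the 8 rose, let-7i-5p and let-7j (log2 fold change 0.81, SE 0.14, adjusted p = 1.22e-05), against 15.2% of all rows called higher. let-7j differs little from let-7i-5p in sequence and followed it over the libraries (r = 0.94). Their seeds differ, and the methods of the study state a mapping without mismatches. Whether reads were shared between these rows was not tested.

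At 15 v 12 months 5 of the 8 fell, let-7a-5p, let-7b-5p, let-7c-5p, let-7d-5p and let-7g-5p, against 16.2% of all rows called lower. The median log2 fold change of the 8 was -0.57, beside -0.06 for all rows. let-7d-5p changed the most among them, and let-7a-5p (-0.55, SE 0.14, adjusted p = 0.00365) and let-7g-5p (-0.59, SE 0.16, adjusted p = 0.00633) were typical. The fitted values of the members at this contrast, given above, were 0.52 for let-7d-3p and 0.27 for let-7i-3p.

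At 15 v 13.5 months 6 of the 8 fell, against 30.5% of all rows, with a median of -0.80 beside -0.02. let-7c-5p (-0.75, SE 0.15, adjusted p = 6.31e-05) and let-7g-5p (-0.70, SE 0.16, adjusted p = 0.000494) were among them. At 16.5 v 13.5 months 3 of the 8 fell, let-7g-5p, let-7i-5p and let-7j, against the 21.9% of all rows given above. At 16.5 v 15 months 3 of the 8 rose, let-7a-5p, let-7c-5p and let-7d-5p, against 19.0% of all rows, and the median was 0.36 beside 0.05. let-7 guides differ by a few bases. The stated mapping allowed no mismatches, and whether reads of near-identical rows were counted in more than 1 of them was not tested.

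With the filter lowered to more than 1 read in 50% of libraries, 14 other family rows were tested and 9 changed over age, against 39.1% of the 345 rows. let-7f-1-3p, whose hairpin is the neighbour of Mirlet7d, was the passenger called over age, with 0 to 14 reads per library (adjusted p = 0.0304). It was higher at 15 v 13.5 months (log2 fold change 1.23, SE 0.46, adjusted p = 0.0409) and at 16.5 v 13.5 months (1.25, SE 0.40, adjusted p = 0.0179). let-7a-1-3p, from the other neighbouring hairpin and not told apart from let-7c-2-3p, had an adjusted p of 0.0502 over age. Its 15 months level nonetheless exceeded the 13.5 months level by 1.58 on the log2 scale (SE 0.48, edgeR adjusted p = 0.0109). This rests on 0 to 13 reads per library, and its other contrasts did not pass the threshold. For let-7b-3p the adjusted p over age was 0.829. Among the scarce guides, let-7e-5p changed over age (adjusted p = 0.00295) and miR-98-5p did not pass the threshold (adjusted p = 0.174).

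The strand ratio of let-7d had one of the wider ranges over age. Of the hairpins with both arms past the main filter there were 11, and the span of the 4 age means was 1.52 for let-7d, the fourth widest, with a median of 1.05. The widest were miR-15b with 1.75 and miR-486a and miR-486b with 1.54 each, the last 2 being equal in their counts. The narrowest were miR-151 with 0.50, miR-423 with 0.52 and miR-30e with 0.69. The mean ratio was highest at 16.5 months for miR-15b, miR-486a and miR-486b and at 15 months for let-7d, miR-30e and miR-151. With the lower filter 70 hairpins could be ordered, among which let-7d took place 9 and let-7i, with a span of 0.40, place 68. The hairpins with the widest spans in that order were miR-210 (1.8), miR-5134 (1.79) and miR-15b, and the narrowest were miR-1843b (0.18) and miR-181c (0.30). A highest mean at 15 months with the lowest at 12 months was not particular to let-7d (15 minus 12 months, 1.52). Among others, miR-106b (1.61) and let-7b (1.38, with a median of 4 let-7b-3p reads) had it too. The highest mean of miR-210 was at 13.5 months and that of miR-5134 at 16.5 months.

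**Figure D4:**
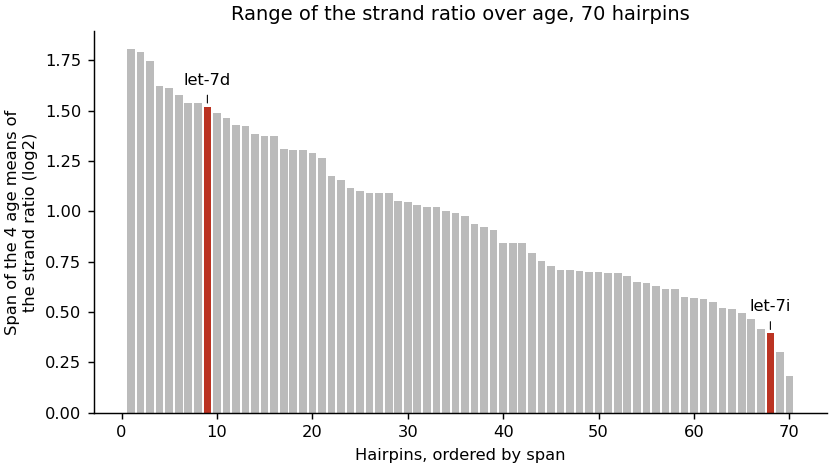
Span of the 4 age means of the log2 ratio of 3p to 5p reads for each of the 70 hairpins with more than 1 read on both arms in 50% of libraries, ordered from the widest to the narrowest. let-7d (span 1.52) stands at place 9 and let-7i (span 0.40) at place 68.

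The microRNAs whose levels were most like those of let-7d-3p over the 40 libraries were miR-423-5p (r = 0.89), miR-328-3p (0.89), miR-744-5p (0.84), miR-1964-3p (0.84) and miR-25-5p (0.84). By deviations from the age means they were miR-328-3p (0.91), miR-423-3p (0.91), miR-423-5p (0.90), miR-25-5p (0.90) and miR-486a-3p (0.87). The most opposed by deviations was miR-451a (-0.87), a red cell microRNA. let-7d-3p was therefore closer to several strands of other hairpins than to its own guide.

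For let-7i-3p the levels most alike were those of miR-107-3p (0.74), miR-378c (0.72), miR-378a-3p (0.68), let-7i-5p (0.65) and miR-181a-5p (0.63). By deviations the values were lower, with miR-151-3p (0.46), miR-351-5p (0.45), miR-181b-5p (0.41), miR-107-3p (0.40) and miR-130a-3p (0.37). The likeness of let-7i-3p to other microRNAs that could be seen thus lay mostly in the course of the age means. Its low counts can lower the r of deviations.

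Base composition moved with these patterns. Of the 5 microRNAs most like let-7d-3p by deviations, the 3 with a sequence in the table had 56.5% to 65.2% G and C, and the 5 most opposed had 33.3% to 45.5%. Across 88 microRNAs with a sequence, the G and C content and the likeness by deviations had an r of 0.56 for let-7d-3p and 0.58 for let-7i-3p. These are correlations across microRNAs, which are not independent replicates.

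The mean G and C content of the reads of 80 other microRNAs, with let-7 and miR-486 rows left out, was 47.9% ± 1.52 at 12 months, 48.9% ± 1.60 at 13.5 months, 48.5% ± 1.87 at 15 months and 48.9% ± 1.79 at 16.5 months (SD, n = 10 each). The age means differed by less than the SD within an age. Within ages, a library's deviation in this measure had an r of 0.87 (rho 0.86) with the deviation of let-7d-3p, and 0.84 without the 2 libraries farthest from the median. At 12, 13.5, 15 and 16.5 months alone the r was 0.89, 0.63, 0.95 and 0.99. For the let-7d strand ratio it was 0.70 (rho 0.72, and 0.66 without those 2), for the let-7i ratio 0.57 (rho 0.52, and 0.50 without them) and for the let-7i-3p level 0.31 (rho 0.22, and 0.20 without them). The let-7i-3p values within ages, in order of age, were 0.50, -0.31, 0.83 and -0.28, with no common sign. Libraries rich in G and C thus had higher let-7d-3p levels at every age. For the guides the r was 0.53 (rho 0.47) for let-7d-5p, with -0.08 to 0.85 within single ages, and -0.43 (rho -0.45) for let-7i-5p, with -0.73 to -0.20. The part of base composition in the levels and ratios was not tested. It was looked at after the values had been seen.

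**Figure D5:**
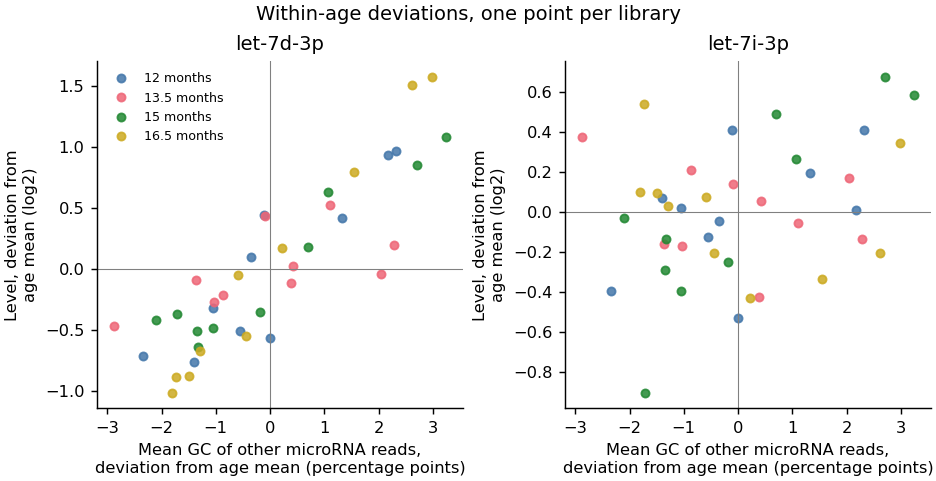
Deviation of the let-7d-3p and let-7i-3p levels from their age means (log2) against the deviation of the library's mean G and C content, in percentage points, over the reads of 80 other microRNAs. Points are the 40 libraries coloured by age. The points of let-7d-3p rise along the axis (r = 0.87), and those of let-7i-3p scatter (r = 0.31).

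The summed level of the red cell microRNAs had its highest median at 15 months, the age at which the mean let-7d ratio was highest. Of the 7 rows, 6 were past the main filter and 3 changed over age, against 61.0% of all rows. The miR-486a and miR-486b rows have equal values, so the same reads enter the count of rows and the sum more than once. The sum had a median of 719997 CPM at 12 months (608361 to 1229460) and 772527 at 13.5 months (521360 to 1000540). It was 1246350 at 15 months (998580 to 4057620) and 746718 at 16.5 months (545973 to 2060970). Sums beyond the nominal total arise because TMM scaling does not fix the total. The sum is mostly miR-486-5p, which rose by 1.01 on the log2 scale at 15 v 12 months (SE 0.24, adjusted p = 0.00223). miR-451a (-0.25, SE 0.33, adjusted p = 0.591), miR-144-5p (-0.36, SE 0.29, adjusted p = 0.381) and, with the lower filter, miR-144-3p (-0.33, SE 0.40, adjusted p = 0.651) had values below 0 that did not pass the threshold, so the list did not move as a whole. The lymphocyte rows, 2 of 2 past the filter changed over age, had medians of 243 to 373 CPM. The myeloid rows, the platelet and endothelial rows and the muscle rows held medians of 2239 to 2800, 0.732 to 2.19 and 2.08 to 3.86 CPM. The part of the cell makeup of the blood in the strand ratios was not tested.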

How the data were processed

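The members and the lists of microRNAs were chosen with earlier results of these data known. Per the methods of the study, adapters were trimmed with cutadapt, reads under 18 nt were discarded, and miRDeep2 mapped the rest to mm10 and miRBase release 21 without mismatches, summing loci of the same mature strand. The submitters' notes name FastQC 0.11.5. The authors deposited raw counts for 1915 mature microRNAs in 40 columns, and a normalized signal for 105 of them that was not used for any value here. Columns took their age from their names, and 0 columns were left without an age.

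The tests of counts used edgeR 4.0.16 under R 4.3.3 (TMM factors, glmQLFit, glmQLFTest over age and for 6 contrasts between ages), after a filter of more than 100 reads in 50% of libraries (20 of 40). Benjamini-Hochberg adjusted p under 0.05 was the threshold. The SE of a fold change is its size divided by the root of the F statistic. Levels, in log2 CPM, had a prior count of 2 and were taken over the total of the 105 rows. Differences of means carry the SE of 2 independent groups. Strand ratios had 0.5 added to each arm. Depth limits let-7i-3p, with 5 to 266 reads per library.

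The text names the members, their guides, the let-7 and miR-98 rows past a filter, the 5 microRNAs most alike by each measure, the hairpins with the 3 widest and narrowest spans. miR-451a was named after its values were seen. Of 102 distinct rows past the filter, 89 (87.3%) matched a RefSeq mature sequence. Hairpin positions and overlapping genes are from GENCODE M21 (GRCm38). The fit was tested on simulated counts. Alternatives were median-ratio factors, library totals, lower filters, DESeq2 1.42.0, 1 factor of unwanted variation, removal of miR-486, another prior count, pseudocount and average. The block by column number, the fit without the shallowest library and the split of the 15 months columns were added after the data had been seen. The maze data and the human cohorts were not analysed here.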

Additional observations from a re-analysis of the deposited data

Results flagged for a closer look

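Of 24 groups of 10 libraries looked at (levels of the 4 strands and both strand ratios at each age), 1 held a library apart from the rest, while chance gives about 1 in 20. It was the lowest let-7i-5p level at 16.5 months, 7.16 log2 CPM, with the next library at 7.60, a gap of 0.477 of the range against a critical value of 0.466. This was the shallowest of the 40 libraries, with 2469196 counts, 198 reads of let-7i-5p and 5 of let-7i-3p, and its let-7i log2 strand ratio of -5.17 lay within the range of its age. Without it let-7i-5p still fell at 16.5 v 13.5 months, by 0.98 on the log2 scale (edgeR, adjusted p = 9.1e-08).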

How the results depend on the processing

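Depth set the main limit. let-7i-3p had at most 56 reads in a 15 months library, so no let-7i ratio could be computed there with at least 100 reads on both arms. Over the alternatives, 90 of the values that answer a comparison kept their direction and side of the threshold, or moved by less than 1 SD, as did 105 fold changes of the guides. The number of microRNAs changed over age was 64 of 105, and 135 of 345 with the filter of more than 1 read and 113 of 1016 without a filter, where more rows were tested. With library totals alone, the mean level at 15 minus 12 months was -0.31 for let-7d-3p and -0.54 for let-7i-3p, the let-7i-5p log2 fold change was -0.86 (adjusted p = 0.00605) at 15 v 12 months and 0.47 (adjusted p = 0.133) at 16.5 v 15 months, where it was -0.13 with TMM. With the miR-486 rows left out it was 0.0044 (adjusted p = 0.989) at 15 v 12 months. With library totals the median log2 fold change of all rows was -0.84 at 15 v 12 months and 0.65 at 16.5 v 15 months. With TMM these medians were -0.06 and 0.05. Without the shallowest library 61 of 104 rows changed, and 8 of 8 let-7 rows.

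The columns carry no replicate numbers of the labels, so the planned block was not run. A replicate block by the number in the column names, which occurs once at each age, gave 66 of 105 microRNAs, 8 of 8 let-7 rows and an adjusted p of 3.35e-06 for let-7d-5p over age. let-7f-5p was then called, and let-7d-5p and let-7i-5p kept their calls over age. Libraries with the same number did not deviate together (mean r -0.0051, against 0.0019 for other numbers). This cannot decide whether the numbers mark animals, because differences between libraries may hide a likeness within a mouse. The main fit was kept without the block.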
